A study of Arabidopsis thaliana with 9 samples.

Results

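Starch turnover in leaves was followed through 10 Arabidopsis thaliana genes, taken by locus identifier: the glucan dikinase SEX1, the phosphoglucan phosphatase SEX4, the amylases BAM3 and AMY3, the debranching enzyme ISA3, the glucanotransferases DPE1 and DPE2, the phosphorylases PHS1 and PHS2, and the granule-bound starch synthase GBSS1. All 10 were found among the 33602 identifiers of each library. All 10 also passed the minimum of 1 CPM (a count scaled to a common library total) in at least 3 libraries, as did 18291 genes in all. The 9 libraries hold messenger RNA from the aerial parts of soil-grown Col0 plants aged 21 days, left untreated in short days. They fall into 3 libraries each labelled CUC2gm-4, cuc2-3 and WT, and each is called by its genotype with its replicate number. The NAC factor CUC2 acts at organ boundaries, and the series calls both lines CUC knockouts. The labels used here give neither the CUC2gm-4 construct nor the kind of cuc2-3 allele. They also leave out the hour of harvest, the number of plants pooled and whether the libraries of a genotype came from separate plants, so the p-values reflect no more than how far these libraries scatter, which may be technical.

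Leaves store part of the carbon fixed by day as starch granules in the chloroplast and break the granules down at night. SEX1 adds phosphate to the granule surface and SEX4 removes it, and this cycle opens the surface to BAM3, AMY3 and ISA3. The maltose released leaves the chloroplast and is processed by DPE2 and PHS2 in the cytosol, while DPE1 and PHS1 act on short glucans inside the plastid. GBSS1 belongs to synthesis and makes the amylose of the granule. Transcripts of many of these genes are known to cycle daily in Arabidopsis leaves, and GBSS1 is a known target of the morning clock factors CCA1 and LHY.

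The libraries held 17361433 to 27734410 counts. The summed level of 4 leaf markers was 25900 to 36300 normalised CPM in the libraries labelled CUC2gm-4, 36300 to 47000 in cuc2-3 and 32300 to 63700 in WT, where normalised CPM are CPM after TMM scaling of the libraries. The 6 root markers summed to at most 1.25 and the 4 flower markers to at most 0.711 normalised CPM in any library; the root marker EXP7 had 0 counts in all WT libraries and the flower marker AP1 had 0 in all libraries labelled CUC2gm-4. CUC2 itself was at 31.3, 32.7 and 43.5 normalised CPM in the libraries labelled CUC2gm-4, 1.75, 0.621 and 0.817 in cuc2-3 and 0.811, 2.96 and 2.33 in WT. This goes against a knockout in the libraries labelled CUC2gm-4, and the cuc2-3 level overlapped that of WT, so the genotype names below are those of the labels. Libraries with the same replicate number resembled each other across genotypes (Pearson r of the deviations from genotype means 0.198 to 0.586 in 9 of 9 pairs, taken across genes, which are not independent replicates). The libraries numbered 3, and with them cuc2-3 1, stood apart in clock genes. An index of 6 evening minus 5 morning clock genes, as a difference of mean log2 normalised CPM, was 0.328 in CUC2gm-4 3, 0.658 in cuc2-3 3 and 1.92 in WT 3, and 1.95 in cuc2-3 1, against 3.74 to 4.30 in the other 5 libraries.

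The upstream sequences of SEX1, BAM3, ISA3 and GBSS1 are shown because these genes, with PHS2, had the widest spread between libraries of a genotype, and because their windows lie clear of any annotated neighbour. Each run covers the 250 bases before the annotated gene start on the TAIR10.1 reference from RefSeq, read 5′ to 3′ on the strand of the gene, with capitals marking a clock motif where one was found.
SEX1, chr1:3590929-3591178, minus strand: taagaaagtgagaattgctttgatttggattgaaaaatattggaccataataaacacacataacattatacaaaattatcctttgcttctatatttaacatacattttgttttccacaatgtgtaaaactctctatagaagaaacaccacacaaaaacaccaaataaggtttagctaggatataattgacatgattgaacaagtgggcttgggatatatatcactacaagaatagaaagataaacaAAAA
BAM3, chr4:9607403-9607652, minus strand: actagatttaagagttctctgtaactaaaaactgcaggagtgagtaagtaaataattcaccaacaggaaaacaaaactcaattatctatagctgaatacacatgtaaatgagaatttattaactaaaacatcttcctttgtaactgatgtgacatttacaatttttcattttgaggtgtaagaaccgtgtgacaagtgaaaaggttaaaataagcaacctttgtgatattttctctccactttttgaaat
ISA3, chr4:5783659-5783908, plus strand: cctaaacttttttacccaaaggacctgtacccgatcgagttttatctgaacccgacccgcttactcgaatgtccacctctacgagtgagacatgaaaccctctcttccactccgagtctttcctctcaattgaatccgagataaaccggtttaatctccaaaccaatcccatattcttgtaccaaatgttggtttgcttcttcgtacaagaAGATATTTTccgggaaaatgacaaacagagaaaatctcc
GBSS1, chr1:11923867-11924116, minus strand: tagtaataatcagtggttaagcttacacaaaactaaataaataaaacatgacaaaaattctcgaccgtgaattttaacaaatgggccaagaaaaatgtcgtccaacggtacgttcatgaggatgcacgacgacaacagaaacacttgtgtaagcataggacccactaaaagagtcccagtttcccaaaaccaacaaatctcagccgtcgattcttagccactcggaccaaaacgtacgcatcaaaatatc
A window of 300 bases, which adds the first 50 bases of the gene, was searched on both strands for the evening element AAAATATCT, the CCA1-binding site AAAAATCT and the G-box CACGTG, none of which contains another. The evening element was found in 3 of the 10 windows and in 2.82% of the windows of 27443 protein-coding genes. In ISA3 it lies on the reverse strand 39 to 31 bases before the start, and in SEX1 it begins 4 bases before the start, so that only its first letters are capitals in the run shown. The remaining match, in DPE1, lies inside the gene. The CCA1-binding site was found in 1 member, DPE2, and in 7.88% of all windows. Of the 250 bases before DPE2, 234 lie within another gene. The G-box was found in 4 members (ISA3, DPE1, PHS1 and PHS2) and in 7.68% of all windows. In ISA3 the G-box lies inside the gene, outside the run shown. PHS1 held 3 G-boxes. BAM3, GBSS1, SEX4 and AMY3 held none of these letters in the window searched. All 250 bases before PHS2 lie within the neighbouring gene PHT4;3, so they are not shown.

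Per kilobase of the gene model given in the files, PHS2 and PHS1 were the most abundant members and GBSS1 the least. PHS2 averaged 104 ± 42.9 normalised RPKM (normalised CPM per kilobase; SD over all 9 libraries) and PHS1 averaged 88.5 ± 14.5. PHS2 was above PHS1 in only 6 of 9 libraries, so their order does not hold beyond the spread. AMY3 (66.9 ± 9.71 RPKM) and BAM3 (65.7 ± 23.5 RPKM) came next and could not be ordered either, AMY3 being higher in 5 of 9 libraries. PHS1 was above AMY3 in all 9, and BAM3 was above DPE2, the next, in 7. DPE2 (45.8 ± 7.19), SEX4 (45.6 ± 4.05), SEX1 (41.9 ± 15.7), DPE1 (37.1 ± 5.84) and ISA3 (34.1 ± 9.24 RPKM) formed a group in which each exceeded the next in 5 to 7 of 9 libraries. GBSS1, at 12.8 ± 4.61 RPKM, lay below ISA3 in 9 of 9. Among the 18291 genes tested, PHS2 ranked 1205th and GBSS1 8198th by this level. In the plot of levels per length the highest library is 3.71 times the lowest for PHS2 and 1.32 times for SEX4.

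**Figure D1:**
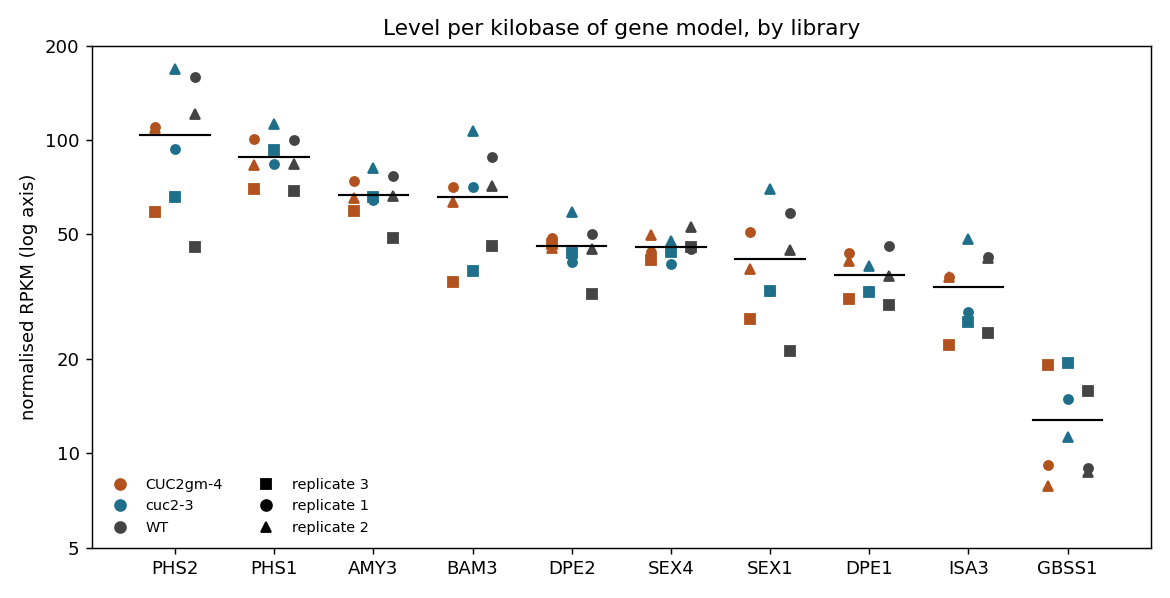
Normalised RPKM (log axis) of the 10 members in order of their mean (line), 1 point per library, with colour for genotype and symbol for replicate number. PHS2, BAM3 and ISA3 have the 3 libraries numbered 3 (squares) at the bottom, GBSS1 has them at the top, SEX1 is also wide and SEX4 is narrow.

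SEX1 (AT1G10760; chromosome 1, 3580830 to 3590928, minus strand, TAIR10.1) and SEX4 (AT3G52180; chromosome 3, 19349600 to 19353728, minus strand), which put phosphate on the granule and take it off, behaved differently. SEX1 was at 238, 182 and 125 normalised CPM in the libraries CUC2gm-4 1, 2 and 3, at 153, 327 and 155 in cuc2-3 1, 2 and 3 and at 273, 208 and 99.0 in WT 1, 2 and 3. The genotypes overlapped, with the lowest level in WT 3 and the highest in cuc2-3 2. SEX4 was at 66.2, 75.1 and 62.5 normalised CPM in the libraries labelled CUC2gm-4, at 60.6, 72.1 and 66.1 in cuc2-3 and at 68.0, 80.0 and 69.0 in WT, in the same order. The spread of log2 levels within genotypes was 0.627 for SEX1, larger than in 92.2% of the genes tested, and 0.130 for SEX4, larger than in 7.45%. Their ratio per length, SEX1 over SEX4, ran from 0.464 in WT 3 to 1.46 in cuc2-3 2.

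BAM3 (AT4G17090; chromosome 4, 9604962 to 9607402, minus strand), the plastid β-amylase that releases maltose at night, was at 145, 129 and 71.6 normalised CPM in CUC2gm-4 1, 2 and 3, at 144, 218 and 77.6 in cuc2-3 and at 180, 145 and 93.3 in WT. In each genotype the library numbered 3 was the lowest, and the genotypes overlapped. BAM3 shares 518 bp with AT4G06665, a long non-coding RNA on the opposite strand that is not in the files used here. The sources used here do not give whether the authors' counting used strand, so antisense reads could be among the BAM3 counts. AMY3 (AT1G69830; chromosome 1, 26288228 to 26293173, minus strand), a plastid α-amylase, was at 219, 193 and 176 normalised CPM in the libraries labelled CUC2gm-4, at 190, 240 and 194 in cuc2-3 and at 227, 196 and 144 in WT. AMY3 was steadier than BAM3, with a within-genotype SD of 0.240 on the log2 scale beside 0.604. ISA3 (AT4G09020; chromosome 4, 5783909 to 5789100, plus strand), which cuts branch points, was at 90.6, 91.1 and 55.0 normalised CPM in the libraries labelled CUC2gm-4, at 70.2, 120 and 65.0 in cuc2-3 and at 105, 105 and 60.2 in WT. Its lowest library in each genotype was again that numbered 3.

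DPE1 (AT5G64860; chromosome 5, 25925173 to 25928879, minus strand) transfers glucose units between short glucans in the plastid. It was at 86.9, 81.9 and 62.0 normalised CPM in the libraries labelled CUC2gm-4, at 65.7, 79.1 and 65.0 in cuc2-3 and at 91.8, 73.5 and 59.3 in WT. DPE2 (AT2G40840; chromosome 2, 17044932 to 17051062, plus strand), the cytosolic enzyme that takes up maltose, was at 159, 148 and 152 normalised CPM in the libraries labelled CUC2gm-4, at 134, 193 and 142 in cuc2-3 and at 163, 147 and 106 in WT. Both genes varied less than a factor of 2 over all 9 libraries, with highest over lowest at 1.55 for DPE1 and 1.82 for DPE2. DPE2 exceeded DPE1 per length in every library, by a ratio of 1.24 ± 0.225 in the libraries labelled CUC2gm-4, 1.35 ± 0.123 in cuc2-3 and 1.13 ± 0.0793 in WT (SD, n = 3 each).

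PHS1 (AT3G29320; chromosome 3, 11252807 to 11257814, plus strand), the plastid phosphorylase, was at 320, 266 and 223 normalised CPM in the libraries labelled CUC2gm-4, at 267, 359 and 295 in cuc2-3 and at 317, 267 and 219 in WT. PHS2 (AT3G46970; chromosome 3, 17301394 to 17306633, minus strand), the cytosolic phosphorylase, was at 328, 326 and 176 normalised CPM in the libraries labelled CUC2gm-4, at 279, 505 and 196 in cuc2-3 and at 474, 362 and 136 in WT. Of the 10 members PHS2 had the widest spread within genotypes, 0.740 on the log2 scale, larger than in 95.0% of the genes tested, while that of PHS1 was 0.250. The rank of the cytosolic gene against the plastid gene changed from library to library. PHS2 over PHS1 per length was 0.842, 0.709 and 0.664 in CUC2gm-4 3, cuc2-3 3 and WT 3 and above 1 in the other 6 libraries, with a highest value of 1.59 in WT 1. PHS1 shares 131 bp with AT3G29330 on the opposite strand (33 to 106 counts per library) and PHS2 shares 35 bp with PHT4;3 on its own strand (268 to 498 counts), beside 3212 counts or more for either phosphorylase.

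GBSS1 (AT1G32900; chromosome 1, 11920390 to 11923866, minus strand) ran against the others. It was at 20.2, 17.3 and 42.0 normalised CPM in the libraries labelled CUC2gm-4, at 32.6, 24.8 and 42.8 in cuc2-3 and at 19.7, 19.1 and 34.7 in WT. The library numbered 3 was the highest in each genotype, and cuc2-3 1 came next below those 3 libraries. Counts behind these values were 315 to 1205 per library, the fewest among the members.

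**Figure D2:**
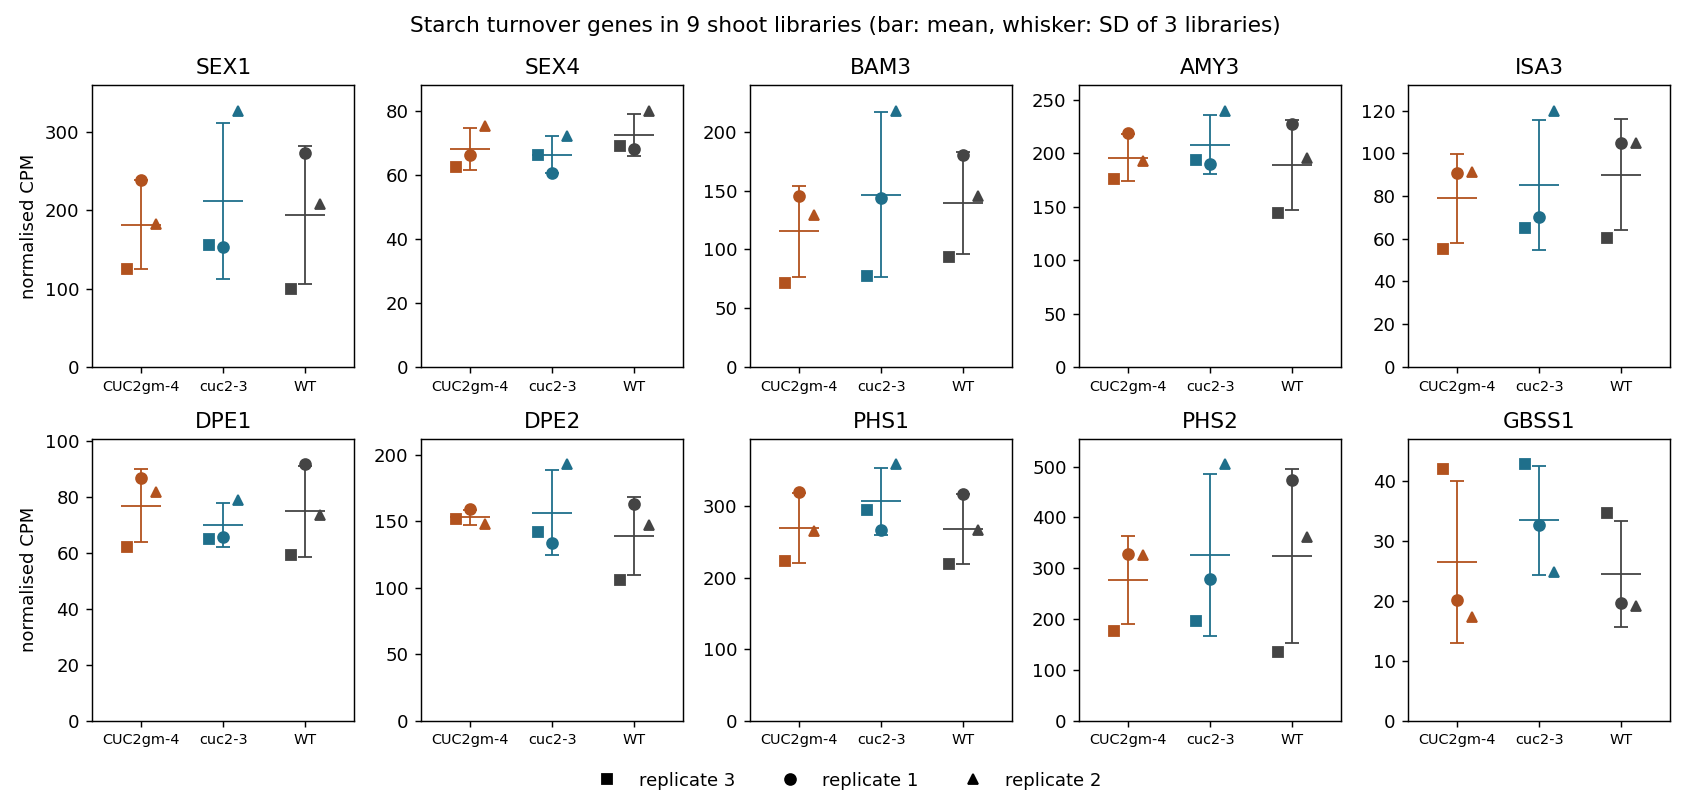
Normalised CPM of each member by genotype, 1 point per library with the symbol for its replicate number, the mean as a bar and the SD of 3 libraries as a whisker. The genotypes overlap for every member, and the libraries numbered 3 (squares) are lowest in all genotypes for BAM3, ISA3, DPE1 and PHS2 and highest in all for GBSS1.

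The comparison of the libraries labelled CUC2gm-4 with WT asked whether starch genes differ in that line. None of the 10 members passed a test of that difference. PHS2 averaged 277 ± 87.3 normalised CPM in the libraries labelled CUC2gm-4 and 324 ± 172 in WT (SD, n = 3 each), a log2 fold change of -0.23 (SE 0.45). BAM3 averaged 115 ± 38.4 against 140 ± 43.7 normalised CPM in WT, with the largest log2 fold change in size among the members, -0.28 (SE 0.38). The log2 fold changes of the other 8 members lay between -0.19 (ISA3, SE 0.30) and 0.14 (DPE2, SE 0.20). With edgeR (quasi-likelihood test, Benjamini-Hochberg adjustment over 18291 genes) 0 members passed a threshold of 0.05 (0.0164% of all genes did), 0 had an unadjusted p below 0.05 (6.48% of all genes did), and DESeq2 and limma-voom called 0. The members' median log2 fold change was -0.041, beside -0.0025 over all genes tested, with 5 positive and 5 negative. The libraries of the genotypes were disjoint for 0 members and for 11.6% of all genes. Blocking on the replicate number, 35 genes passed (0.191%) and 0 members, and 0 members had an unadjusted p below 0.05, beside 10.9% of all genes.

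In cuc2-3 against WT the members likewise overlapped, and GBSS1 had the largest log2 fold change of the members in size, 0.45 (SE 0.36), from 33.4 ± 9.02 normalised CPM in cuc2-3 and 24.5 ± 8.86 in WT (SD, n = 3 each). PHS1 averaged 307 ± 47.3 in cuc2-3 and 268 ± 49.4 in WT, a log2 fold change of 0.20 (SE 0.20), and SEX4 averaged 66.3 ± 5.75 in cuc2-3 and 72.3 ± 6.67 in WT, a log2 fold change of -0.13 (SE 0.15). The values of SEX1 (0.13, SE 0.40), BAM3 (0.070, SE 0.38) and PHS2 (0.012, SE 0.45) are small beside their errors. Again 0 members passed in edgeR (0.0219% of all genes did), 0 had an unadjusted p below 0.05 (1.96% of all genes did), DESeq2 and limma-voom called 0, and 0 members were disjoint between the genotypes, beside 5.52% of all genes. The median was 0.10 for the members and -0.0077 for all genes, with 7 members positive and 3 negative. Blocking on the replicate number, GBSS1 stood at 0.48 (SE 0.16) with an unadjusted p of 0.0125 in edgeR and an adjusted p of 0.998. Under the block 3.73% of all genes had an unadjusted p below 0.05. With the clock index as a covariate GBSS1 was at 0.18, SEX1 at 0.43, PHS2 at 0.38, BAM3 at 0.325 and PHS1 at 0.32. DPE2 was then at 0.26, AMY3 at 0.25, ISA3 at 0.14, DPE1 at 0.036 and SEX4 at -0.085, and 0 members passed.

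Between both lines, the libraries labelled CUC2gm-4 were lower than cuc2-3 in 8 of 10 members by sign, beside 9128 of 18291 genes. The members' median log2 fold change was -0.15, beside 0.00044 over all genes, and none of these differences passed. BAM3 was at -0.35 (SE 0.38), GBSS1 at -0.34 (SE 0.36), PHS2 at -0.24 (SE 0.45) and SEX1 at -0.22 (SE 0.40). Without cuc2-3 2 the values of BAM3, PHS2 and SEX1 turned to 0.056, 0.22 and 0.24. Those of AMY3, ISA3 and DPE2 also turned positive without it, to 0.027, 0.22 and 0.15. In edgeR 0 members passed (0.0164% of all genes did) and 0 had an unadjusted p below 0.05 (3.73% of all genes did), DESeq2 and limma-voom called 0, and 0 were disjoint beside 10% of all genes. These 3 comparisons share libraries, and several members varied together over the libraries, so the signs are not independent. Blocking on the replicate number, 7 genes passed (0.0383%) and 0 members, and 1 member, GBSS1 at -0.41 (SE 0.16), had an unadjusted p below 0.05, beside 7.39% of all genes. The SE of SEX1, BAM3, PHS2 and GBSS1 was 0.40, 0.38, 0.45 and 0.36 on the log2 scale without the block and 0.27, 0.19, 0.23 and 0.16 with it.

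**Figure D3:**
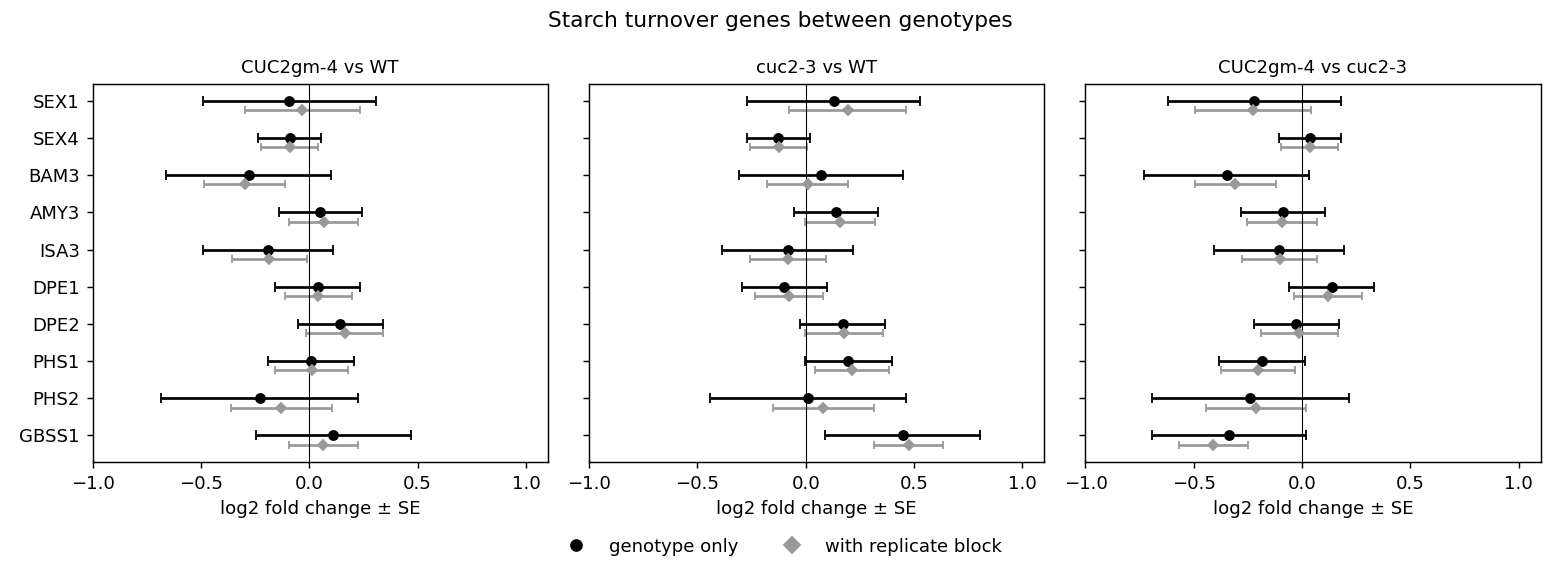
Log2 fold changes of the 10 members with their SE in the 3 genotype comparisons, from the fit by genotype alone (circles) and from the fit that blocks on replicate number (diamonds). All values lie within 0.48 of 0, and the block narrows the errors of BAM3, PHS2, SEX1, ISA3 and GBSS1.

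Within genotypes, PHS2 and BAM3 were lower and GBSS1 was higher in the libraries numbered 3. PHS2 was 0.536-fold and 0.540-fold as high in CUC2gm-4 3 as in CUC2gm-4 1 and 2, and the same ratios were 0.702 and 0.388 in cuc2-3 and 0.287 and 0.376 in WT. BAM3 had ratios of 0.496 and 0.555 in the libraries labelled CUC2gm-4, 0.539 and 0.355 in cuc2-3 and 0.518 and 0.642 in WT. GBSS1 had ratios of 2.08 and 2.43 in the libraries labelled CUC2gm-4, 1.31 and 1.72 in cuc2-3 and 1.77 and 1.82 in WT. All ratios lay below 1 for PHS2 and BAM3 and above 1 for GBSS1.

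In a fit with genotype and replicate number, edgeR's quasi-likelihood F-test on the 2 degrees of freedom of the number, adjusted over 18291 genes, called 3 of 10 members, beside 4.36% of all genes (797), and 5 had an unadjusted p below 0.05, beside 23.9% of all genes. Of the members called, 2 were lower in libraries numbered 3, beside 1.77% of all genes, and 1 was higher, beside 2.15%. The members were chosen with earlier results of these data known, so these shares do not test the list. PHS2 fell in libraries numbered 3, by 1.1 (SE 0.24) against 1 and by 1.22 (SE 0.24) against 2 on the log2 scale (adjusted p = 0.0299). BAM3 fell by 0.95 (SE 0.19) and 1.01 (SE 0.19), with an adjusted p of 0.0235. GBSS1 rose, with log2 fold changes of 0.76 (SE 0.16) and 0.98 (SE 0.16) and an adjusted p of 0.0153. ISA3 was at -0.56 (SE 0.18) and -0.81 (SE 0.18) with an adjusted p of 0.0518, and SEX1 at -0.84 (SE 0.27) and -0.91 (SE 0.27) with an adjusted p of 0.105, so neither passed. ISA3 did pass edgeR's F-test with RLE size factors (adjusted p = 0.0452), with library totals (0.0389) and with no count minimum (0.000338). With no count minimum SEX1 passed too (2.97e-06). With limma-voom 4 members passed, adding ISA3. DESeq2 called 5 members, adding ISA3 and SEX1, among 2017 genes called in all, beside 797 in edgeR. In these 5 genes the log2 fold changes of libraries numbered 2 against 1 ran from -0.22 for GBSS1 to 0.25 for ISA3. In DPE1, AMY3, PHS1, DPE2 and SEX4 the value of 3 against 1 or 2 largest in size was -0.384, for DPE1 against 1. Their adjusted p ran from 0.244 to 0.521. Over all 10 members the median was -0.35 against number 1 and -0.31 against number 2, beside 0.011 and 0.020 over all genes. The library numbered 3 was the lowest in all 3 genotypes for 4 members (BAM3, ISA3, DPE1 and PHS2; 8.98% of all genes) and the highest in all 3 for GBSS1 alone (11.6% of all genes).

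The calls rest on few libraries. BAM3 did not pass without CUC2gm-4 1 (adjusted p = 0.0696 in edgeR), CUC2gm-4 3 (0.0576) or cuc2-3 3 (0.128). PHS2 did not pass without CUC2gm-4 1 (0.0790), CUC2gm-4 2 (0.0535), cuc2-3 3 (0.0967) or WT 3 (0.0942). GBSS1 passed without any single library, at adjusted p from 0.00842 to 0.0496. Without cuc2-3 1 the members called numbered 5, with ISA3 (0.0123) and SEX1 (0.00911) added, among 1261 genes called in all. Without CUC2gm-4 1 or cuc2-3 3 the members called numbered 1, among 214 and 195 genes. With all libraries 797 genes were called. The replicate number cannot be told apart from anything else the libraries of a number share, and in bulk shoots fewer cells of a type cannot be told apart from less RNA per cell.

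**Figure D4:**
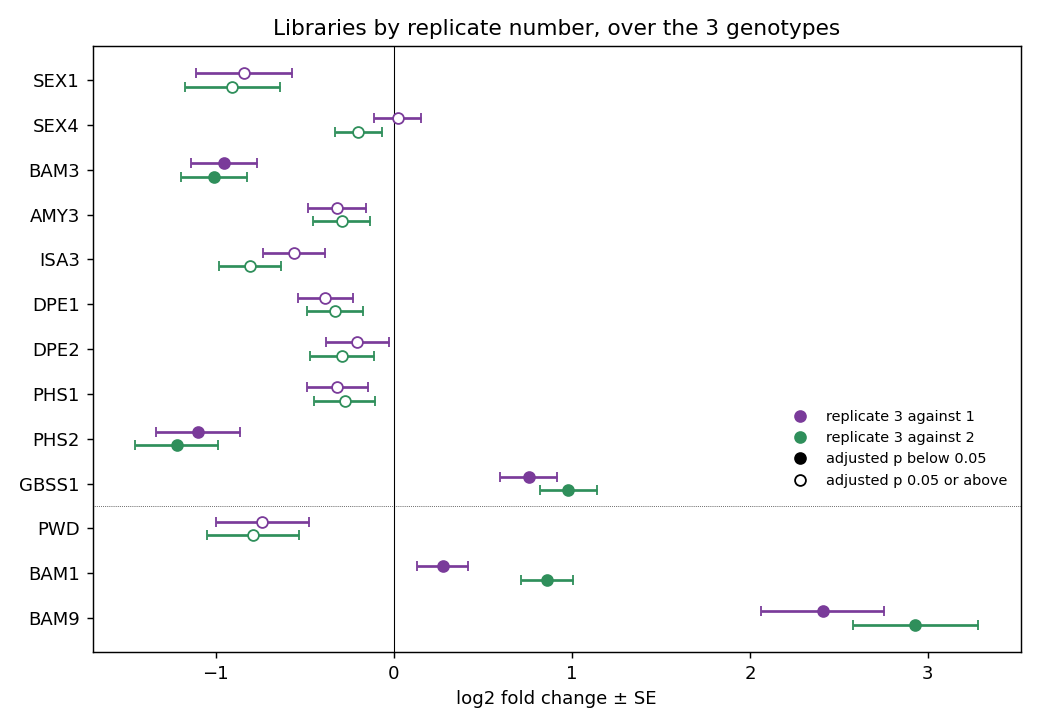
Log2 fold changes with SE of libraries numbered 3 against those numbered 1 (purple) and 2 (green), over the 3 genotypes, for the 10 members and, under the dotted line, 3 further starch genes; filled points passed the F-test on the replicate number. PHS2 and BAM3 lie near -1 and GBSS1 near 1, while BAM9 exceeds 2 in both contrasts.

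Other genes of starch metabolism were read from a list of 41, of which 38 passed the count minimum, 23 for synthesis and 15 for breakdown and export. Between genotypes 0 of the 38 passed in any of the 3 comparisons in edgeR, DESeq2 or limma-voom. An unadjusted p below 0.05 in edgeR was found for 3 between the libraries labelled CUC2gm-4 and WT (6.48% of all genes), for 1 (AT5G65685) against cuc2-3 (3.73%) and for 0 in cuc2-3 against WT (1.96%), which are shares near or below those of all genes. In the first of these GPT2, a plastid glucose-phosphate transporter, was at 0.643, 1.5 and 1.39 normalised CPM in the libraries labelled CUC2gm-4 and at 5.74, 4.35 and 2.07 in WT. Its log2 fold change was -1.78 (SE 0.57, adjusted p = 0.679). BAM5, a β-amylase outside the plastid, was at 12.3, 16.9 and 15.8 normalised CPM in the libraries labelled CUC2gm-4 and at 12, 5.75 and 8.0 in WT, with 0.81 as its log2 fold change (SE 0.31, adjusted p = 0.756). The libraries of both groups were disjoint for 4 of the 38, GPT2, BAM5, AT5G65685 and AT5G39790, beside 11.6% of all genes, and these 4 are named after their values were seen. The median log2 fold change of the synthesis genes was -0.069 and that of the breakdown genes -0.098 in this comparison. These medians were 0.033 and 0.0081 in cuc2-3 against WT, and -0.13 and -0.052 in the libraries labelled CUC2gm-4 against cuc2-3. Between the libraries labelled CUC2gm-4 and cuc2-3, 5 synthesis and 2 breakdown genes were disjoint, beside 10% of all genes. Between cuc2-3 and WT 0 of either kind were disjoint, beside 5.52% of all genes.

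By replicate number, 2 of the 15 breakdown genes and 0 of the 23 synthesis genes passed edgeR's F-test, beside 4.36% of all genes, and 4 of each had an unadjusted p below 0.05, beside 23.9% of all genes. The wider list was also chosen with earlier results of these data known, so these shares do not test it. Both genes that passed, BAM9 and BAM1, are β-amylase relatives. BAM9, a β-amylase-like protein without known catalytic activity, was at 110 normalised CPM in CUC2gm-4 3 against 31.7 and 24.1 in CUC2gm-4 1 and 2, at 86.5 in cuc2-3 3 against 27.0 and 16.0, and at 192 in WT 3 against 15.6 and 12.3. Its log2 fold changes were 2.41 (SE 0.35) against number 1 and 2.93 (SE 0.35) against number 2 (adjusted p = 0.00548), and it passed without any single library. BAM1, a plastid β-amylase that can act beside BAM3, was at 60.4 against 55.9 and 33.9 in the libraries labelled CUC2gm-4, at 66.3 against 59.1 and 41.7 in cuc2-3 and at 73.4 against 50.5 and 34.8 in WT. Its log2 fold changes were 0.27 (SE 0.14) for number 3 against 1, 0.86 (SE 0.15) for 3 against 2 and -0.59 (SE 0.15) for 2 against 1, with an adjusted p of 0.0223, so the call takes in the low libraries numbered 2 as well. BAM1 did not pass without CUC2gm-4 1 (0.0569), CUC2gm-4 2 (0.0734), cuc2-3 3 (0.0650), WT 2 (0.0903) or WT 3 (0.0571). BAM2, BAM4, BAM5, BAM7 and BAM8 did not pass (adjusted p from 0.0627 to 0.874). PWD, the dikinase that acts after SEX1, was at 93.0 against 171 and 131 in the libraries labelled CUC2gm-4, at 110 against 103 and 216 in cuc2-3 and at 81.4 against 197 and 149 in WT, and did not pass (adjusted p = 0.139). By replicate number limma-voom called 2 of the 38, and DESeq2 called 6, among 2017 genes called in all. Without cuc2-3 1 edgeR called 7, among 1261 genes, beside 797 genes with all libraries.

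Likeness was measured as Pearson's r of log2 normalised CPM over the 9 libraries, as a description, since the points share the libraries and the split between those numbered 3 and the rest. PWD was the gene most like the members' mean profile (r = 0.985), followed by AT1G69070 (annotated as nucleolar-like; 0.975), PWP2 (0.971), THIC, a thiamine synthesis enzyme (0.969), and the clock gene GI (0.968). PWD was also the gene nearest to SEX1 (0.991). The nearest to the other members were YLS7 for SEX4 (0.923), COBL8 for BAM3 (0.977), UBC23 for AMY3 (0.984), AT5G66540 for ISA3 (0.982), AT4G08510 for DPE1 (0.973), NIH for DPE2 (0.991), AT3G55760 for PHS1 (0.976), AT3G20730 for PHS2 (0.985) and SCL1 for GBSS1 (0.964). Among the members, SEX1 had 7 of the other 9 within its 500 most similar genes and PHS1 and PHS2 had 5 each, whereas SEX4 and GBSS1 had 0. SEX1 and AMY3 (0.961), SEX1 and PHS2 (0.957) and PHS2 and ISA3 (0.946) were the closest pairs. GBSS1 had a negative r with all 9 others, from -0.852 with DPE1 to -0.394 with DPE2.

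The libraries numbered 3, in which PHS2 and BAM3 were lower and GBSS1 was higher, were also among the 4 lowest in the clock index, whose part in the differences by replicate number was not tested. Between genotypes, the fit with the index as a covariate also called 0 members. In libraries numbered 3 the evening gene FKF1 was at 4.55, 5.26 and 12.9 normalised CPM in CUC2gm-4, cuc2-3 and WT, against 15.9 in cuc2-3 1 and 56.5 to 80.6 in the other 5. CCA1, a morning gene, was at 11.2, 8.92 and 3.64 in the same 3 libraries numbered 3, against 4.91 in cuc2-3 1 and 1.69 to 2.68 in the others. By replicate number 4 of 6 evening genes passed and all 4 fell in libraries numbered 3, beside 1.77% of all genes. Of the 5 morning genes 2, CCA1 and LHY, passed and both rose, beside 2.15% of all genes. RVE8 was at 0.95 in libraries numbered 3 against 1 and 1.27 against 2 on the log2 scale. PRR9 was at -0.18 and 0.93 and PRR7 at -0.096 and 0.17, and none of these passed. The evening and morning lists were chosen with earlier results of these data known. The library cuc2-3 1 was at 1.95 in the index, next to WT 3 at 1.92. In GBSS1 it was at 32.6 normalised CPM, below the libraries numbered 3 and above the other 5. It was close to cuc2-3 3 in SEX1, ISA3 and DPE1, and its BAM3 level was 144 beside 77.6 in cuc2-3 3. SEX4 stayed between 60.6 and 80.0 normalised CPM over the whole range of the index. Of the 4 leaf markers 1 passed by replicate number, beside 4.36% of all genes. RBCS1A was at -0.89 in libraries numbered 3 against 1, -0.29 in 3 against 2 and -0.60 in 2 against 1 on the log2 scale (adjusted p = 0.0397). RCA was at -0.69 in 3 against 1 and 0.098 in 3 against 2, CAB1 at -0.42 and 0.036, and LHCB3 at 0.14 and 0.23, and none of these passed (adjusted p = 0.0583, 0.270 and 0.528). The part of the leaf markers was not tested.

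**Figure D5:**
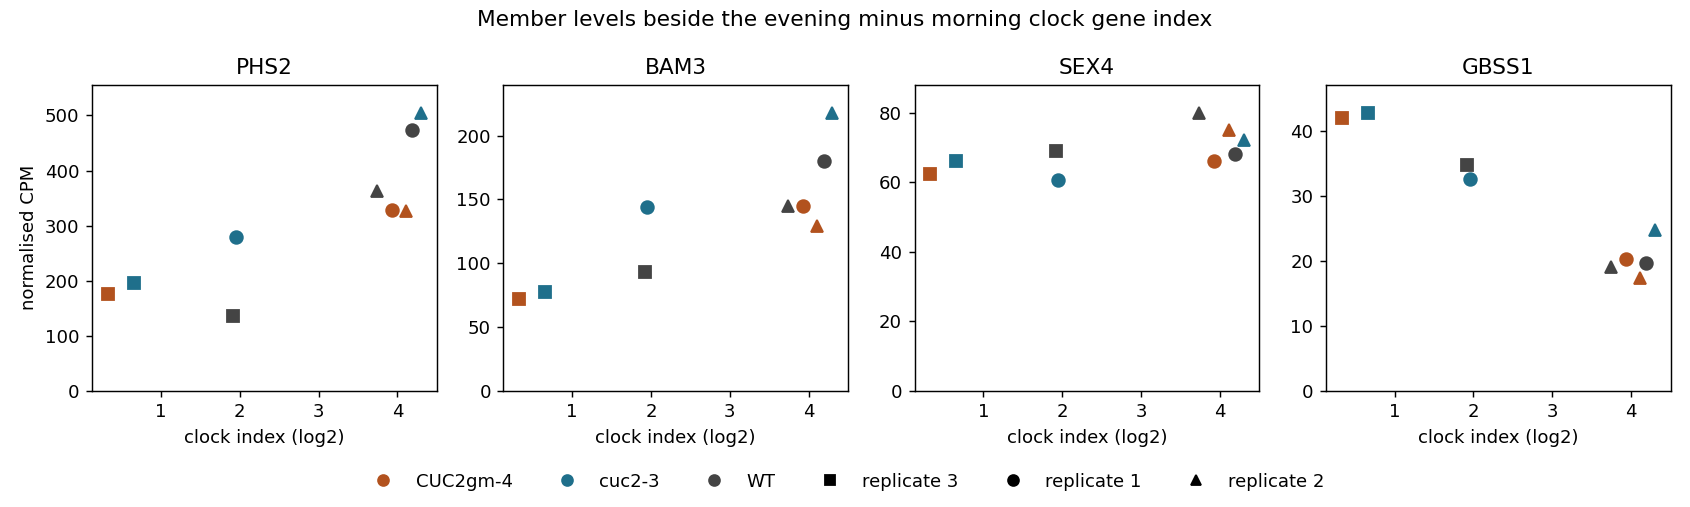
Normalised CPM of PHS2, BAM3, SEX4 and GBSS1 against the clock index (mean log2 normalised CPM of 6 evening minus 5 morning genes), 1 point per library with colour for genotype and symbol for replicate number. The 3 libraries numbered 3 and cuc2-3 1 lie at an index of 1.95 or below, with GBSS1 above and PHS2 below the other 5 libraries.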

How the data were processed

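The deposited files give whole-number read counts per gene model and the model's length, 1 file per library. Counting by the authors used sam2pkm, per the file headers, and left out reads whose best and second alignment scores were equal, and mapped minus removed reads equal each file's total. TAIR10 is the build that the submitters' processing notes name. For the aligner and the strand setting the sources used here give nothing. Per the labels' protocols the libraries are stranded, single-end and sequenced on an Ion Torrent Proton. Totals were 17361433 to 27734410 counts, and 92.2% to 96.6% of reads mapped.

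Counts were analysed with edgeR 4.0.16 in R 4.3.3: a minimum of 1 CPM in 3 libraries, TMM factors, a quasi-likelihood fit of genotype to all 9 libraries and Benjamini-Hochberg adjustment over 18291 genes at 0.05. The SE is the size of the log2 fold change divided by the square root of F. A second fit added the replicate number. Same-numbered libraries correlated at r from 0.198 to 0.586 in all 9 pairs (others -0.477 to 0.188 in 18), which are the data's own pairing, since no label explains the numbers. Deviations cancel out within a genotype, so a positive r in same-numbered pairs by itself lowers r in the others. RPKM divides normalised CPM by the model length in the files. Log2 levels used a prior count of 2. DESeq2 1.42.0 and limma-voom (limma 3.58.1) were alternatives. The procedure was run on simulated counts with the same spread for every gene, unlike these libraries, and no result here rests on that run. Positions and names are from TAIR10.1, whose annotation is not that of the files. Members, gene lists and motifs were chosen with earlier results of these data known. Genes named are the members, genes of the wider list that passed a test or partner a member, the genes with the highest r to each member and to their mean profile, the clock genes and CUC2. Alternatives were other scalings, tools and count minimums, each library left out, a replicate block, a clock covariate and pairs of genotypes alone.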

Additional observations from a re-analysis of the deposited data

How the results depend on the processing

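Here CUC2gm-4 stands for the libraries labelled so. Over 19 alternative settings no member passed in any of the 3 genotype comparisons (570 values, lowest adjusted p 0.584 over edgeR, DESeq2 and limma-voom), while 60 of these values had the other sign. Single libraries decided many signs. Leaving out 1 library at a time, log2 fold changes for CUC2gm-4 against WT ran from -0.41 to 0.23 for SEX1, -0.12 to 0.19 for AMY3, -0.42 to 0.014 for ISA3, -0.11 to 0.20 for DPE1, -0.024 to 0.27 for DPE2, -0.13 to 0.14 for PHS1, -0.60 to 0.14 for PHS2 and -0.39 to 0.44 for GBSS1. In cuc2-3 against WT they ran from -0.33 to 0.45 for SEX1, -0.34 to 0.38 for BAM3, -0.029 to 0.28 for AMY3, -0.41 to 0.079 for ISA3, -0.25 to 0.059 for DPE1, -0.0077 to 0.29 for DPE2 and -0.45 to 0.38 for PHS2. For CUC2gm-4 against cuc2-3 they ran from -0.46 to 0.24 for SEX1, -0.041 to 0.10 for SEX4, -0.66 to 0.056 for BAM3, -0.18 to 0.027 for AMY3, -0.27 to 0.22 for ISA3, -0.12 to 0.15 for DPE2 and -0.50 to 0.22 for PHS2. SEX4 in libraries numbered 3 against 1 ran from -0.022 to 0.065.

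For CUC2gm-4 against WT, PHS1 was at -0.0018 with RLE size factors and -0.0017 in DESeq2, and SEX1 at 0.025 with library totals. With the clock covariate SEX1 was at 0.12, PHS2 at 0.036 and GBSS1 at -0.092 there, and ISA3 at 0.14 and DPE1 at 0.036 in cuc2-3 against WT. BAM3 in cuc2-3 against WT was at -0.0010 in limma-voom, and DPE2 for CUC2gm-4 against cuc2-3 at 0.051 with library totals. Fits without the libraries numbered 3, and without cuc2-3 1 as well, were chosen after seeing the data. Without the libraries numbered 3, AMY3 was at -0.035, DPE2 at -0.012 and GBSS1 at -0.045 for CUC2gm-4 against WT, and SEX1 at -0.0069 and PHS2 at -0.097 in cuc2-3 against WT. Leaving out cuc2-3 1 too gave -0.035 for AMY3, -0.012 for DPE2 and -0.045 for GBSS1 for CUC2gm-4 against WT, 0.19 for ISA3, 0.42 for BAM3 and 0.30 for DPE2 in cuc2-3 against WT, and -0.018 for SEX4, -0.63 for SEX1, -0.67 for BAM3, -0.21 for AMY3, -0.32 for DPE2 and -0.62 for PHS2 for CUC2gm-4 against cuc2-3, where the group cuc2-3 then has 1 library, assumed to vary like the others. The cause of these changes was not tested.

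Genes called for CUC2gm-4 against WT numbered 3, and 9 with no count minimum, 81 in DESeq2, 6 with both genotypes alone, 5 with the clock covariate, 20 without the libraries numbered 3, 21 without cuc2-3 1 as well and 2 to 8 without single libraries. In cuc2-3 against WT they numbered 4, and 14 in DESeq2, 8 without the libraries numbered 3 and 8 without cuc2-3 1 as well. For CUC2gm-4 against cuc2-3 they numbered 3, and 25 in DESeq2, 1 without the libraries numbered 3 and 0 without cuc2-3 1 as well, where edgeR was the only tool run. The replicate number was also used as a block, a pairing that was read from these same data and that no label explains. With it genes called numbered 35 for CUC2gm-4 against WT, 7 for CUC2gm-4 against cuc2-3 and 4 in cuc2-3 against WT, and the block changed no call of a member. By replicate number 797 genes passed, 3026 with no count minimum, 2017 in DESeq2 and 195 to 1261 without single libraries. Members called numbered 3, 4 with RLE size factors, 5 with no count minimum, 5 in DESeq2 and 1 to 5 without single libraries. Every member had 315 counts or more in every library.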
